A study of Mus musculus with 8 samples.

Results

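The sites examined were the open chromatin peaks around the endogenous copies of Pou5f1, Sox2, Klf4 and Myc, the genes whose products are used together, as OSKM, to reprogram fibroblasts. A peak was a member when it lay within 200 kb of 1 of the 4 genes (mm10) and overlapped none of their exons, because reads from the retroviral cDNAs map to exons. This rule used positions only and took 162 of the 176445 peaks in the 4 deposited lists, with 51 in MEFs, 24 at OSKM day 5, 37 at OSKM day 10 and 50 in ESCs. A further 15 peaks overlapped an exon of the 4 genes and were left out. Peaks from any list with a gap of at most 400 bp were joined into 96 regions, of 101701 in the whole series. Of these, 23 lay within 1 kb of an annotated start site of some transcript, so the 73 others are called distal regions here.

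The assay was ATAC-seq, which finds open DNA because a transposase can cut and tag it. Mouse embryonic fibroblasts (MEFs), the same kind of cells at day 5 and day 10 after retroviral OSKM infection with a FLAG control vector in ESC medium with vitamin C, and embryonic stem cells (ESCs) were each given by 2 libraries, 8 in all. The labels call all groups wild type and assign the C57BL/6J-OG2 strain to MEFs, both OSKM days and ESC replicate 2, whereas ESC replicate 1 is labelled C57Bl6J and the methods describe the ESCs as OG2. OG2 cells carry a green fluorescent reporter driven by Pou5f1 sequence, and no reporter sequence is in the reference genome, so that reads from it would map to the Pou5f1 locus. According to the methods, the MEFs came from mid-gestation embryos that carried the reporter. The methods place the ESCs for ATAC-seq on gelatin in 2i/LIF medium, and the labels and methods differ on feeders for them. Medium thus differed between the ESCs and the OSKM days, and its part cannot be told apart from that of cell state. Since the 2 libraries of a group were deposited as 1 list, there is no spread between replicates and no test was made. In the order MEFs, day 5, day 10 and ESCs, used below wherever 4 values over the lists are given, 6, 5, 5 and 4 of 6 fibroblast marker genes had a peak within 1 kb of a start site. Of 6 ESC markers, 2, 1, 1 and 6 did.

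OCT4, the product of Pou5f1, together with SOX2 and KLF4 binds enhancers in pluripotent cells, including enhancers of the genes that encode these factors. Pou5f1 has a distal enhancer, used in naive pluripotent cells, and a proximal enhancer, used in primed cells of the later epiblast. Sox2 has the flanking regulatory regions SRR1 and SRR2 and, far downstream, the Sox2 control region on which its expression in ESCs depends. Klf4 is flanked downstream by a cluster of ESC enhancers, and Myc by Pvt1, a long non-coding RNA gene that holds many enhancers. MEFs express Klf4 and Myc, but neither Pou5f1 nor Sox2 is active in fibroblasts.

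Sequences of some of the open sites inside the known enhancers are given first, because the results turn on them. All are on the plus strand of mm10, and capitals mark exact matches on either strand to the letters searched. In the Pou5f1 distal enhancer (chr17:35503823-35504084), the stretch shown was covered by the peaks of day 5, day 10 and ESCs and by none in MEFs, and capitals mark, in order, an AP-1, a KLF and a SOX match.
Pou5f1 distal enhancer: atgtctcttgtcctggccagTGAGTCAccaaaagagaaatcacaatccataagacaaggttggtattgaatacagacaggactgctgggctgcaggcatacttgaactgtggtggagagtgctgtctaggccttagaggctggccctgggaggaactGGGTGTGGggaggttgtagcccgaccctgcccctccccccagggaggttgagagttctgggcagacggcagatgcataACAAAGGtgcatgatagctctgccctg
The SOX match in SRR2 of Sox2 (chr3:34654028-34654074) lay at the far end of a peak found in ESCs alone.
Sox2 SRR2: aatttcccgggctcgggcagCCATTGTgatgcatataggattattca
The Sox2 control region held 2 peaks, both in ESCs alone. The stretch shown is part of the farther peak and held a SOX and an ESRRB match (chr3:34760419-34760602). Other matches in these peaks are given below.
Sox2 control region, farther peak: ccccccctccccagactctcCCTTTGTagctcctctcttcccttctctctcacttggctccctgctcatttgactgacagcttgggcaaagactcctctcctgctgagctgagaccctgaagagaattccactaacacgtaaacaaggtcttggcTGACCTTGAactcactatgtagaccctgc
At Klf4, the enhancer peak with the highest score in ESCs held a SOX match (chr4:55464185-55464231), and the 1 enhancer site already listed at day 5 (chr4:55477655-55477854) held no match to any of the 7 motifs.
Klf4 enhancer, ESCs alone: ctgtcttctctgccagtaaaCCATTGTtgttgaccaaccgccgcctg
Klf4 enhancer, day 5, day 10 and ESCs: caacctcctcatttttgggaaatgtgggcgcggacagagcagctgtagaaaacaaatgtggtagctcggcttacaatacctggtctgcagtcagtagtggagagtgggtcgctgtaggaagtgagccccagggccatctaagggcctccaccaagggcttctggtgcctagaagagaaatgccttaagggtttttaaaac

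None of the known enhancers had a peak in MEFs. At Pou5f1 and Klf4 some of them were already listed as open at day 5 and day 10, whereas no known enhancer of Sox2 was listed before ESCs. Positions below are in kb from the start site of the gene, negative upstream. The score of a peak is 10 times the −log10 of its q-value and ranks peaks within a list only.

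The upstream site of Pou5f1 (gene at chr17:35506018-35510772, ENSMUSG00000024406.16) had no MEF peak and a wider peak at day 10 than at day 5 and in ESCs than at day 10. At day 5 the peak was 517 bp wide with a score of 25. At day 10 it was 854 bp wide with a score of 61. In ESCs it was 3411 bp wide (chr17:35502571-35505981) with a score of 983, rank 11 of the 48486 peaks in the list. The MEF list covered 0 bp of the 1101 bp distal enhancer window, day 5 covered 517 bp, day 10 covered 675 bp and ESCs all 1101 bp. Of the 801 bp proximal enhancer window, MEFs and day 5 covered 0 bp, day 10 covered 80 bp and ESCs all 801 bp. Thus both OSKM days were listed in the distal enhancer, and the proximal enhancer was touched at its edge at day 10 alone. Reads of the OG2 reporter that map here cannot be told apart from those of the endogenous locus. Their part in this contrast of the distal and proximal enhancers was not tested. The ESC peak ends 37 bp before the annotated start of the gene, so that it falls out of the count if exons are widened by 500 bp.

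Other peaks close to Pou5f1 were shared with MEFs. A site at −4.92 kb was listed in MEFs, at day 5 and at day 10, with scores of 21, 103 and 57, and not in ESCs. A site at 7.71 kb over exons of Tcf19, the neighbouring gene, was listed in all 4 groups with scores of 280, 145, 153 and 435. A further peak at 10.9 kb, over the Tcf19 start, was listed at day 10 alone with a score of 28.

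**Figure D1:**
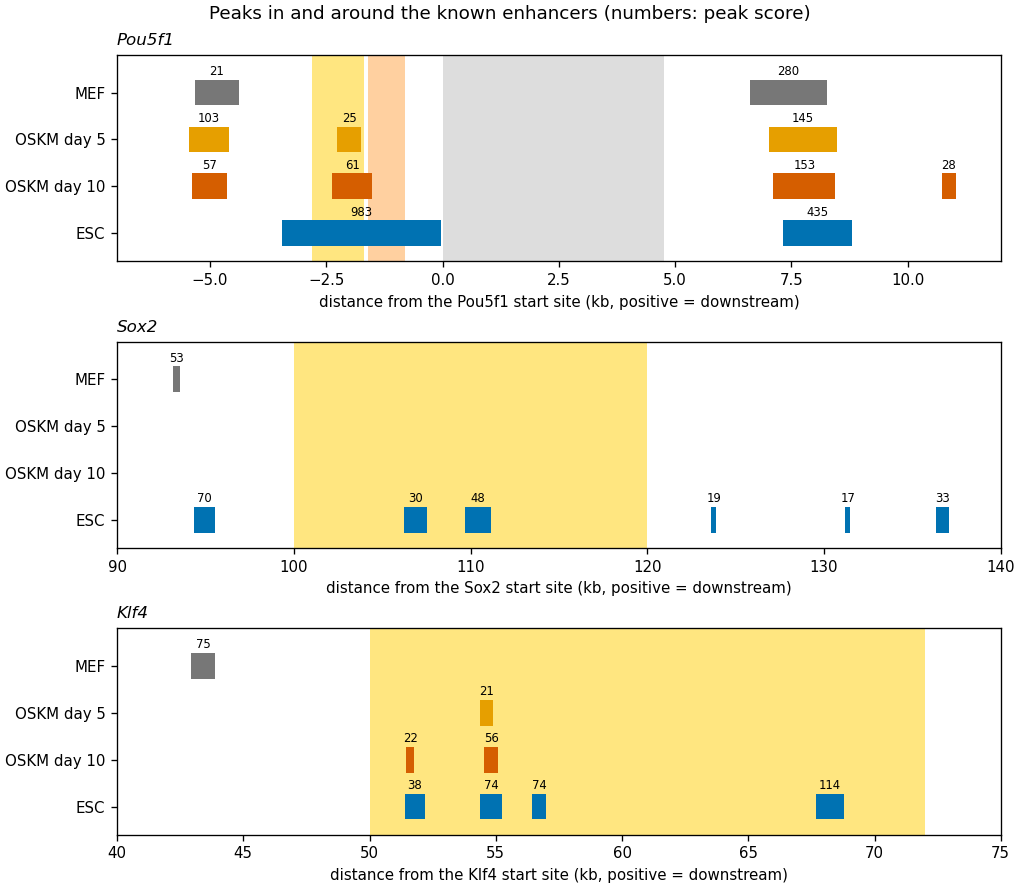
Peaks of the 4 lists (rows) around Pou5f1, Sox2 and Klf4, drawn to scale against the distance from the start site in kb, with the score of each peak above it. Yellow marks the Pou5f1 distal enhancer, the Sox2 control region and the Klf4 downstream cluster, orange the Pou5f1 proximal enhancer and grey the Pou5f1 gene, whose exonic peaks are left out. MEFs have no peak in any coloured window, and the Sox2 control region is empty in all lists but ESCs.

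Fold enrichment near Pou5f1 was low for the score of the peaks. For each peak the fold enrichment given by the authors was divided by the median fold of peaks in the same list with a score within 10% of its own. Within 10 kb of the Pou5f1 start this ratio was 0.521 to 0.613 for 2 peaks in MEFs, 0.511 to 0.546 for 3 peaks at day 5, 0.536 to 0.569 for 3 peaks at day 10, and 0.294 to 0.533 for 2 peaks in ESCs. The ESC values rest on 3 and 5 peaks of like score, the peak itself included. When width was matched too, the peak with 0.294 had no other peak to be compared with, and the other ESC value became 0.680 over 3 peaks. The 3 peaks on Pou5f1 exons, which are no members, had ratios of 0.499 at day 5, 0.533 at day 10 and 0.398 in ESCs. Farther out the medians were 0.989, 0.968, 0.999 and 1.00. The low values beyond 10 kb were those of the 10.9 kb peak at day 10, with 0.573, and of the peaks at the Ddr1 start about 192 to 195 kb away, with 0.618 to 0.772. All ratios of Sox2, Klf4 and Myc members lay at or above 0.804 in MEFs, at day 5 and at day 10. Wide peaks on the exons of the other genes, which are no members, were lower, with 0.591 for Myc and 0.652 for Klf4 in MEFs and 0.618 and 0.738 at day 5. Against peaks alike in score and also in width, within 1.5 times, these exonic values were 0.835, 0.849, 0.780 and 0.736. Matched on width too, the ratios within 10 kb of the Pou5f1 start were 0.532 to 0.618 in MEFs, at day 5 and at day 10. In ESCs, ratios of 0.594 to 0.657 were also found in the Sox2 control region and for 3 peaks of the Klf4 cluster. Of these 3, 2 carry the same peak name. Low ratios at the other genes were thus those of ESC members and of exonic peaks. The part of the OG2 reporter in the Pou5f1 values was not tested, and its reads cannot be told apart from those of the endogenous locus.

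**Figure D2:**
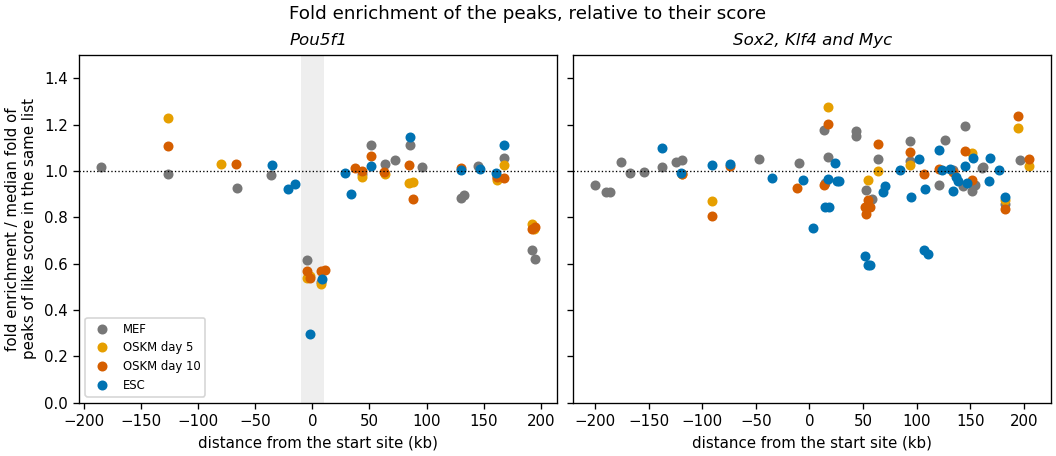
Fold enrichment of each member peak divided by the median fold of peaks of like score in the same list (vertical axis, no unit), against the distance from the start site in kb, for Pou5f1 (left) and for Sox2, Klf4 and Myc (right), coloured by list. The dotted line marks a ratio of 1 and the grey band the 10 kb on each side of the Pou5f1 start, where every ratio lies between 0.294 and 0.613, the lowest being the ESC value that rests on 3 peaks.

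Sox2 (chr3:34650405-34652461, ENSMUSG00000074637.7) had 14 ESC peaks, 1 more than Pou5f1 and Klf4, and 2 peaks at day 5. Within 100 kb it had 7 ESC peaks, fewer than Pou5f1 with 9 and Klf4 with 8. In the SRR2 window 1 peak of 355 bp was listed in ESCs alone (chr3:34653714-34654068, score 33), and in the SRR1 window no list had a peak. In the Sox2 control region the ESC peaks lay at 107 kb (score 30) and at 110.4 kb (chr3:34760076-34761552, score 48). No other list had a peak there, which says that none passed the peak caller and not that the site was closed. These belonged to a run of ESC peaks without a MEF, day 5 or day 10 counterpart at 84.7, 95, 107, 110.4, 124, 131, 137 and 153 kb, the last of which was the farthest from Sox2 in ESCs. Within the run, MEFs had peaks of their own at 93.4 kb and shared a peak with day 10 and ESCs at 145 kb, where the scores were 100, 39 and 45.

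The 2 Sox2 sites of ESCs and not MEFs that were listed during reprogramming lay upstream, in Sox2ot, a long non-coding RNA gene that spans Sox2. The wider, at −90.6 kb over a Sox2ot start site, was 1708 bp wide at day 5, 1815 bp at day 10 and 1478 bp in ESCs, with scores of 74, 56 and 25. A site at −74.3 kb was listed at day 10 and in ESCs with scores of 17 and 51. Another Sox2ot start at −11.6 kb had a peak of 1042 bp at day 10 alone (score 15), and a site at 194 kb was listed at both OSKM days alone (scores 81 and 76). A site at 14.3 kb, at the start of Gm42693, was listed in MEFs, at day 10 and in ESCs, with scores of 20, 15 and 25. The 5 regions listed in MEFs and not in ESCs were all absent from both OSKM days, with the most peak bp at −137 kb.

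Klf4 (chr4:55527143-55532466, minus strand, ENSMUSG00000003032.8) gained ESC sites downstream. In the enhancer cluster ESCs had 4 peaks, day 10 had 2, day 5 had 1 and MEFs had 0. The site at 54.8 kb was listed at day 5 (506 bp, score 21), at day 10 (561 bp, score 56) and in ESCs (889 bp, score 74). The site at 51.8 kb was listed at day 10 (304 bp, score 22) and in ESCs (788 bp, score 38). The sites at 56.7 kb (563 bp, score 74) and 68.2 kb (1094 bp, score 114) were listed in ESCs alone. The ESC intervals at 54.8 and 56.7 kb carry the same peak name, so that they appear to be pieces of 1 peak of replicate 1, as are the Myc intervals at 25.5 and 27.3 kb. Counted by name, the ESC members are 48 peaks.

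MEF sites of Klf4 lay on the other side of the gene. Of the 9 regions in MEFs and not in ESCs, 7 were upstream, including 5 between −167 and −200 kb and 1 of 1458 bp at −9.32 kb, and none of the 9 had a peak at day 5 or day 10. Of the 10 regions in ESCs and not in MEFs, 8 were downstream. The 3 regions shared by MEFs and ESCs were also listed at both OSKM days: at −119 kb, at 17.5 kb and over the start of Rad23b, a DNA repair gene, at 182 kb. At 17.5 kb the scores were 96, 129, 88 and 78. At −119 kb the MEF and ESC intervals overlapped by 135 bp alone.

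Myc (chr15:61985391-61990374, ENSMUSG00000022346.15) was flanked by MEF sites of which some were still listed during reprogramming. Of its 24 regions 19 lay over Pvt1, and all but 1 were downstream. Of the 12 regions in MEFs and not in ESCs, 4 were listed at day 5 and 5 at day 10, and 7 at neither. The Pvt1 start at 53.2 kb was listed in MEFs, at day 5 and at day 10 with scores of 75, 42 and 17. In Pvt1 introns, the site at 63.9 kb had scores of 249, 20 and 53, that at 94.1 kb 201, 46 and 62, and that at 152 kb 17, 83 and 38, in the same order. All 4 were listed in these 3 groups and not in ESCs. The single region shared by MEFs and ESCs lay at 121 kb and was also listed at day 10. ESCs had 9 regions without a MEF peak, of which 1, at 107 kb, was also listed at day 10, and the farthest lay at 177 kb. Nearest to Myc, the ESC site was at −6.41 kb and the MEF site at 13.8 kb. A site at 205 kb was listed at both OSKM days alone.

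The rest of the Pou5f1 window is gene-dense, in the major histocompatibility complex. It held 29 regions, 14 of which lay within 1 kb of a start site. Sites listed in all 4 groups included the start sites of Vars2, a tRNA synthetase gene, and Gtf2h4, a subunit gene of a general transcription factor, at 161 and 168 kb, and an intergenic site at 85.0 kb with scores of 330, 42, 80 and 83. The start of Ddr1, a collagen receptor gene, held the MEF site with the most peak bp (2444 bp), which was listed at both OSKM days and not in ESCs. The class I genes H2-Q1, H2-Q4 and H2-Q7 had a MEF peak within 1 kb of a start and no ESC peak, and of these H2-Q4 was listed at both OSKM days. At H2-Q10 the MEF and ESC peaks counted as 1 region but did not overlap. The site at 88.1 kb was the one with the most peak bp among those listed during reprogramming alone.

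**Figure D3:**
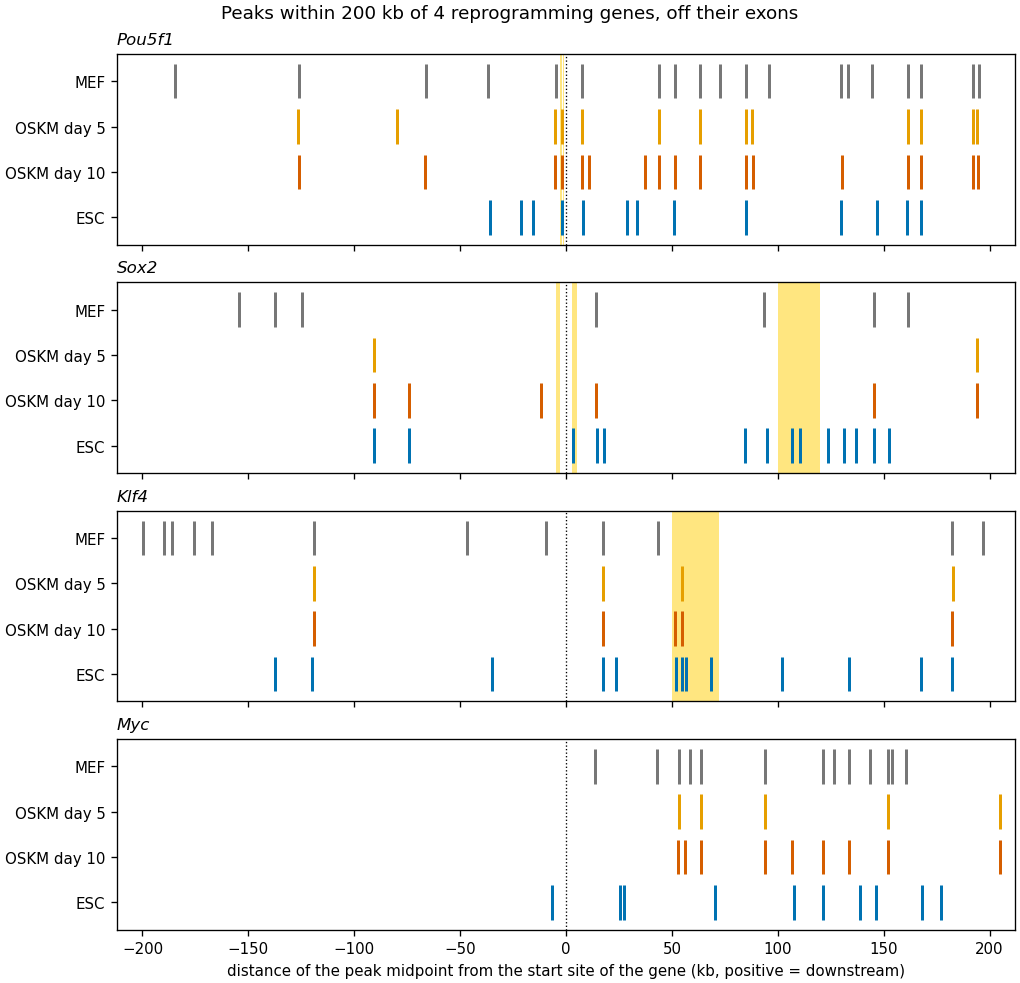
Member peaks of each gene as ticks at the peak midpoint, by list (rows) and distance from the start site in kb, with known enhancers in yellow. All Myc peaks but 1 lie downstream, and the ESC ticks of Sox2 crowd between 84.7 and 153 kb, where the day 5 row is empty.

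Across the 4 loci, 38 regions were listed in MEFs and not in ESCs, 13 in both, 37 in ESCs and not in MEFs and 8 during reprogramming alone. These are 39.6%, 13.5%, 38.5% and 8.33% of the 96 regions, against 36.4%, 19.1%, 28.4% and 16.1% of all regions in the series. The exact 95% binomial intervals, which cover counting error only, are 29.7 to 50.1%, 7.41 to 22.0%, 28.8 to 49.0% and 3.67 to 15.8%. Among distal regions the counts were 29, 7, 32 and 5 of 73, or 39.7%, 9.59%, 43.8% and 6.85%, against 41.2%, 7.89%, 31.8% and 19.1% of distal regions in the series. Regions of ESCs and not MEFs were a larger share of the members than of the series, and regions of reprogramming alone a smaller one, in both cases just past the edge of the interval. With lists of equal length these shares were 36.8% (28 of 76) against 28.4% and 18.4% (14 of 76) against 25.9%. No interval was computed at this setting, so it is not known whether either difference passes counting error there. Among regions whose peaks all rank in the upper 50% of their list, the share of ESCs and not MEFs was 29.6%, 8 of 27, against 31.2% in the series, so the difference was lost. Neighbouring regions of 1 locus are not independent, which these intervals leave out of account. Among the members, the largest single class was ESCs alone with 31 regions, 10 of them at Sox2, followed by MEFs alone with 26. The shares of these classes in the whole series were not computed, so their order cannot be judged against it.

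Few of the sites that distinguish ESCs from MEFs were listed during reprogramming. Of the 37 regions in ESCs and not in MEFs, 3 had a peak at day 5 (8.11%, series 10.7%) and 6 at day 10 (16.2%, series 12.6%). The 3 at day 5 were the Pou5f1 upstream site, the Sox2ot start and the Klf4 site at 54.8 kb. Myc had none, and all 3 sites were listed again at day 10. At day 10 they were joined by the Sox2 site at −74.3 kb, the Klf4 site at 51.8 kb and the Myc site at 107 kb. With so few regions the intervals, 1.70 to 21.9% and 6.19 to 32.0%, include the series share. Restricted to distal regions, 1 of 32 was listed at day 5 (3.13%, series 10.7%) and 4 at day 10 (12.5%, series 12.3%), also with the series share inside the intervals. The Pou5f1 upstream site, the Sox2ot start and SRR2 lie within 1 kb of a start site and are not among these.

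Sites of MEFs and not ESCs were listed again at day 5 in 10 of 38 regions (26.3%, series 14.2%) and at day 10 in 12 (31.6%, series 14.8%). The intervals were 13.4 to 43.1% at day 5, which includes the series share, and 17.5 to 48.7% at day 10, which does not. By locus, the counts were 6 and 7 of 12 at Pou5f1, 4 and 5 of 12 at Myc, 0 of 5 at Sox2 and 0 of 9 at Klf4 on both days, and the difference between loci was not tested. Of the 13 regions shared by MEFs and ESCs, 7 were listed at day 5 (53.8%, series 76.0%) and 12 at day 10 (92.3%, series 79.9%). Restricted to distal regions of MEFs and not ESCs, 5 of 29 were listed at day 5 (17.2%, 5.85 to 35.8%, series 12.6%) and 6 at day 10 (20.7%, 7.99 to 39.7%, series 12.5%), so that the series share lay within the interval on both days.

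**Figure D4:**
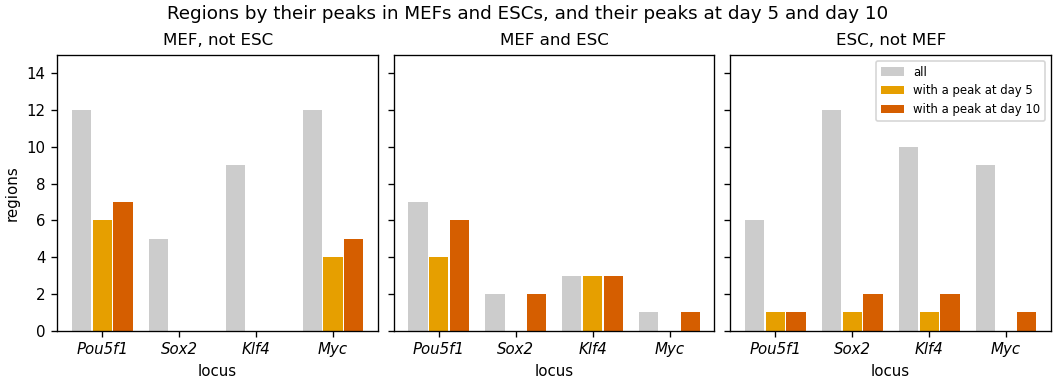
Number of regions (vertical axis) by locus for the regions in MEFs and not ESCs, in both, and in ESCs and not MEFs. Grey bars count all regions, light and dark orange bars those that also had a peak at day 5 and at day 10. In the left panel Sox2 and Klf4 have no orange bar.

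The number of peaks around each gene was set beside the same count for all 21938 protein-coding genes, each off its own exons. The medians over all genes were 14, 8, 9 and 12 peaks. Pou5f1 had 19, 13, 17 and 13 peaks, above the upper quartiles of 12 and 13 at day 5 and day 10, where 78.1% and 86.1% of genes had fewer. Sox2 had 7, 2, 6 and 14 peaks, below the lower quartiles of 8 and 5 in MEFs and at day 5. Klf4 had 12, 4, 5 and 13 peaks, below the lower quartile at day 5, and Myc 13, 5, 9 and 10. All 4 genes had fewer peaks at day 5 than in MEFs, and the day 5 list is itself shorter, with 36219 peaks against 56514. When each list was cut to its 35226 highest scores, Pou5f1 had 10 peaks in MEFs and 13 at day 5, the reverse order, and the other genes kept the order.

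A gene was called when one list had at least 1.5 times the peaks of the other within 200 kb. Sox2, with 14 in ESCs and 7 in MEFs, was the only 1 of the 4 genes called towards ESCs, and 0 were called towards MEFs. Over all protein-coding genes 17.6% were called towards ESCs and 23.3% towards MEFs, and with lists of equal length 25.7% and 19.8%. Of 15 other pluripotency genes, such as Nanog and Esrrb, 7 were called towards ESCs and 2 towards MEFs, and of 12 fibroblast genes, such as Twist1 and Col1a1, 1 and 7. Nanog, with 31 peaks in ESCs and 22 in MEFs, was not called. Summed over its genes, the pluripotency list had 185, 121, 133 and 269 peaks, and the fibroblast list 195, 92, 99 and 113. These are plain sums of the gene counts, so that a peak within 200 kb of 2 listed genes counts for both.

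**Figure D5:**
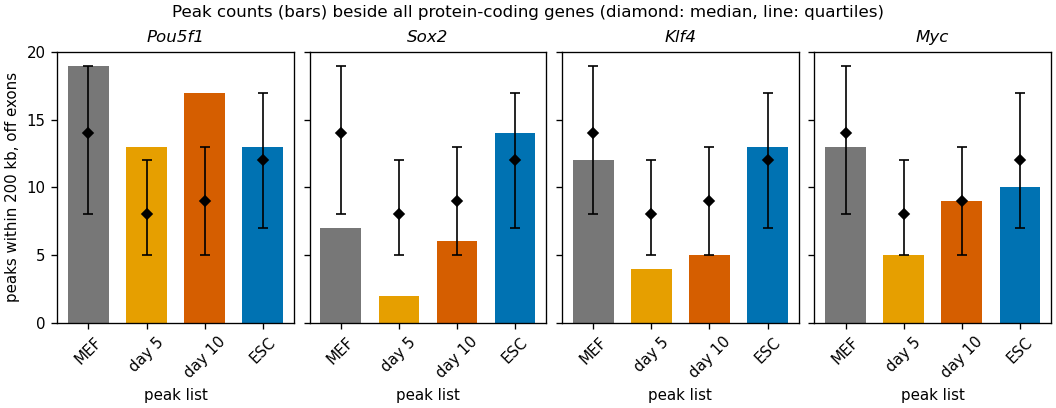
Member peaks per gene and list (bars, counts from 0), with the median (diamond) and quartiles (line) of all 21938 protein-coding genes counted in the same way. Pou5f1 stands above the quartile line at day 5 and day 10, Sox2 below it in MEFs and at day 5, and Klf4 below it at day 5.

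The genes whose 4 counts were most like those of each member were named where fewer than 10 genes tied. Fam186a, Hexim2 and Mapkap1 differed from Pou5f1 by 1 peak in sum, the first by symbol of 5 tied genes. Lrrc75b, Mier1 and Trappc11 differed from Klf4 by 1, and Adamts15, Erg28 and Fam72a, of 6 tied genes, from Myc by 1. Taar8c and Taar9, neighbours of each other, differed from Sox2 by 2.

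Motifs were searched as exact letters, on either strand, in a window of 200 bp centred on the peak that was widest in each region. The letters were ATGCAAAT for the octamer bound by OCT4, CCATTGT or CCTTTGT for SOX factors, CCACACCC or CCCCACCC for KLF factors, TCAAGGTCA for ESRRB, TGANTCA for AP-1, a composite of SOX and octamer letters, and CACGTG for the MYC E-box. Of the 96 windows, 1 held the octamer (series 2.19%), 9 SOX (10.1%), 1 the composite (0.767%), 10 KLF (7.30%), 0 ESRRB (0.679%), 19 AP-1 (15.4%) and 3 the E-box (2.93%), and matches of different motifs may overlap. For ESRRB the exact interval reaches 3.77%. AP-1 letters, those bound by FOS and JUN factors, were in 15 of 38 windows of MEFs and not ESCs (39.5%, interval 24.0 to 56.6%, series 29.4%) and in 2 of 37 of ESCs and not MEFs (5.41%, 0.661 to 18.2%, series 6.44%). By locus, the MEF windows with AP-1 letters were 1 of 12 at Pou5f1, 4 of 5 at Sox2, 5 of 9 at Klf4 and 5 of 12 at Myc. SOX letters were in 5 of 37 windows of ESCs and not MEFs (13.5%, series 14.5%). All these intervals include the share of the series.

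In the known enhancers whole peaks were searched. The Pou5f1 site held SOX matches at −1960, −3109 and −847 bp from the start. Its AP-1 matches lay at −2175, −2464 and −1334 bp and its KLF match at −2038 bp. The first SOX match, the first AP-1 match and the KLF match, all shown above, lay in the day 5 and day 10 peaks. The others lay in the ESC peak alone. The farther peak of the Sox2 control region held the only ESRRB match of any whole member region, TGACCTTGA, at 110169 bp. It also held SOX matches at 110034 and 111128 bp, a KLF match at 109907 bp and an AP-1 match at 111015 bp. The nearer peak held KLF matches at 106977 and 107010 bp. The Klf4 site at 51.8 kb held 2 E-boxes, both outside its day 10 peak, and the Klf4 site at 68.2 kb held SOX matches at 68255 and 67969 bp. Whole regions with the octamer were 3, at 33.7 and 130.0 kb from Pou5f1 and at 18.0 kb from Sox2, and with the composite 2, at 28.6 and 37.5 kb from Pou5f1. They are named here after their values were seen, and no series share was computed for whole regions. A match of letters is no evidence of binding. The composite was searched as fixed letters, and looser forms were not searched. In SRR2 and the Pou5f1 distal enhancer, the SOX match shown above lies beside letters that begin like the octamer but end differently. The exact search did not count these, so it cannot tell whether the known enhancers lack a composite.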

How the data were processed

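According to the labels and methods, the authors mapped ATAC-seq reads to mm10 with bowtie2 (very sensitive mode; version 2.2.0 in the submitters' processing notes, another in the methods), used samtools to discard poorly mapped reads, and left out reads with several positions or from mitochondria. The caller of the ATAC-seq peaks is not given in the sources used here. The authors deposited 1 list per group, which holds for each peak a score, a fold enrichment (a ratio), and p-values and q-values on the −log10 scale. Lists were named as intersections and carry peak names of replicate 1, so that score and fold may belong to a wider peak. Read depth is unknown.

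Peaks were joined to GENCODE mouse release 21 and the GRCm38 sequence with python 3.11.15, pandas 2.3.3, scipy 1.17.1 and samtools 1.23.1. Exons were those of all transcripts of a gene. Windows reached 200 kb on each side of the gene body. Shares have exact (Clopper-Pearson) 95% intervals. Selection of members and patterns was tested on simulated peaks. Known enhancer windows (for example −2.8 to −1.7 kb for the Pou5f1 distal enhancer and 100 to 120 kb for the Sox2 control region) were set from background knowledge. Regions were named when in such a window, when they had the most peak bp of their pattern in a locus or were farthest in ESCs, and others named beside them were chosen after their values were seen. Genes alike in counts had the smallest summed difference, with non-overlapping windows. The ratio of fold to peaks of like score, and its form matched on width, were chosen after seeing the data. Members and lists were chosen with earlier results of these data known. Columns of other series numbered 0. The sequence of 1 site is not reported here.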

Additional observations from a re-analysis of the deposited data

How the results depend on the processing

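No paired analysis was possible because the 2 replicates of a group were deposited as 1 list, and for the same reason no replicate could be left out. Under the alternatives, 44 counts stayed within 1.5 times the reported ones and 31 did not, and no count comes from a test. Within 100 kb of the genes the lists had, in the order of the report, 22, 14, 22 and 28 peaks, with 16 regions of MEFs and not ESCs, 6 of both and 22 of ESCs and not MEFs. There, Sox2 and Klf4 (2 of the 4 genes) were called towards ESCs and 1, Myc, towards MEFs, when 21.7% and 26.3% of all genes were. Of the pluripotency list 1 gene was then called towards MEFs, and of the fibroblast list 2 towards ESCs. More than 1 kb from start sites, day 5 had 14 peaks and day 10 had 23, and the regions numbered 7 for both and 5 for reprogramming alone. With the exons of all genes left out, a setting chosen after seeing the data, day 5 had 14 peaks and day 10 had 21. With each list cut to its 35226 highest scores, regions of both fell to 7 and those of reprogramming alone rose to 14, of 76, and 0 pluripotency genes were called towards MEFs. Regions whose peaks all rank in the upper 50% of their list by score, also chosen after seeing the data, numbered 14, 4, 8 and 1 in the order of the report. In whole regions, most of which are longer than the 200 bp windows, the matches were 3 for the octamer, 34 SOX, 2 composite, 31 KLF, 1 ESRRB, 36 AP-1 and 15 E-box. The share over whole regions of the series was not computed, so these counts have no background and cannot be judged against it. Without read counts, a peak missing from a list cannot be told apart from one below its threshold, and the lengths of the lists may follow sequencing depth.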
